A study of Mus musculus with 56 samples.

Results

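Whether a mutant genotype changed expression by the same amount in an early and in a later blood progenitor was asked with 1 contrast: the genotype effect in granulocyte-macrophage progenitors (GMP) minus the genotype effect in multipotent progenitors (MPP). The mutant mice had the genotype Tet2-/-Flt3ITD and are called T2F3, the controls were WT, and both were C57BL/6 mice whose age is not given in the sources used here. Cells came from bone marrow: MPP were sorted as lineage-negative, Sca-1 and c-Kit-positive cells with CD48 but no CD150, and GMP as lineage-negative, Sca-1-negative, c-Kit-positive cells with both CD34 and CD16/32. The labels name neither the driver of the Tet2 deletion nor whether animals were pooled. All 15 RNA-seq libraries of the 56 samples in the series entered: from WT mice 4 MPP and 5 GMP libraries, from T2F3 mice 3 of each. Of 24424 genes in the table, the 12133 with a mean of at least 4 were tested, and 274 of them had effects that differed at an adjusted p under 0.05. Values are log2 expression, an effect is the T2F3 mean minus the WT mean, and a difference of effects is the GMP effect minus the MPP effect, so that 1 on this scale is a 2-fold difference.

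MPP retain the capacity to make lymphoid, erythroid and myeloid cells, and GMP have narrowed to granulocytes and monocytes. TET2 oxidizes 5-methylcytosine in DNA and its loss is common in blood cancers. FLT3 is a receptor tyrosine kinase that is normally abundant on MPP and declines as cells become committed to the myeloid lineage, and the internal tandem duplication (ITD) makes it signal without its ligand, through STAT5, ERK and AKT.

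The sorted populations were compared with the transcripts of their labels. The summed linear level of 8 GMP genes, among them Mpo, Elane and Ctsg, ran from 75782 to 80224 in WT MPP, from 61831 to 73722 in T2F3 MPP, from 289476 to 330359 in WT GMP and from 195555 to 293633 in T2F3 GMP. Of 6 MPP genes, among them Cd34, Cd48 and Hlf, the sums ran from 11353 to 12006 in WT MPP, from 10231 to 11861 in T2F3 MPP, from 4847 to 5721 in WT GMP and from 5594 to 5914 in T2F3 GMP. Cd34 had the highest level of the 6, and Cd48 alone did not follow the label in WT, with means of 9.95 in MPP and 10.10 in GMP. From WT MPP to T2F3 MPP, the mean of Cd48 went from 9.95 to 11.48 and that of Ly6a from 7.70 to 8.32. Hlf went from 10.80 to 9.26, Meis1 from 10.34 to 9.55, Cd27 from 10.26 to 9.87 and Cd34 from 12.58 to 12.44. The sums do not show these opposite changes. No GMP gene passed the test for the difference of effects, and 2 of the 6 MPP genes, Hlf and Meis1, did. WT GMP 1 and T2F3 GMP 2 stood apart from the rest of their groups: their 74 ribosomal protein genes lay a median of 1.06 and 0.79 higher. Nothing in the labels says that libraries of a group came from separate animals, so a p-value here reflects library-to-library spread, some of which may be technical. In bulk samples, fewer cells of a type and less RNA per cell cannot be told apart.

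In most of the genes that differed, the larger genotype effect was in MPP. Of the 274 genes (2.26% of those tested), 167 had a positive difference (1.38%) and 107 a negative one (0.882%), and 107 differed by more than 2-fold. The effect was larger in size in MPP in 225 genes and in GMP in 49. Taken alone, the MPP effect passed its threshold in 4889 of the tested genes (40.3%; 20.7% higher and 19.6% lower in T2F3) and the GMP effect in 1855 (15.3%; 9.25% higher and 6.04% lower). Among the 274, both effects passed in 80 genes, the MPP effect alone in 156 and the GMP effect alone in 38. The positive share was 60.9%, and it was 74.5% after median centring of the libraries, with array weights 48.2%, with the ribosomal score as a covariate 45.0%, and without WT GMP 1 and T2F3 GMP 2 33.1%.

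The number of calls depended on single libraries. It fell to 79 without T2F3 MPP 3, 107 without T2F3 GMP 3, 117 without WT MPP 3, 121 without WT MPP 4, 133 without T2F3 MPP 2 and 137 without WT MPP 1. It was 180 without T2F3 GMP 2, 181 without WT GMP 2 and 182 without WT GMP 5, and it reached 586 without T2F3 MPP 1. No gene of the 274 changed the sign of its difference in any of these fits. The 274 were called from these same libraries, so the kept signs are no independent check.

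Sorted by the signs and sizes of the group means, the 274 genes fell into 6 classes of unequal size. The positive differences comprised 67 smaller falls in GMP, 92 genes of opposite sign that were higher in T2F3 GMP and lower in T2F3 MPP, and 8 larger rises in GMP. The negative differences comprised 48 smaller rises in GMP, 56 genes of opposite sign that were lower in T2F3 GMP, and 3 larger falls in GMP. Of the 148 genes of opposite sign, 15 had both effects past the threshold, so in the other genes of those classes the sign of at least 1 effect was not established. The class is therefore a description of the means.

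**Figure D1:**
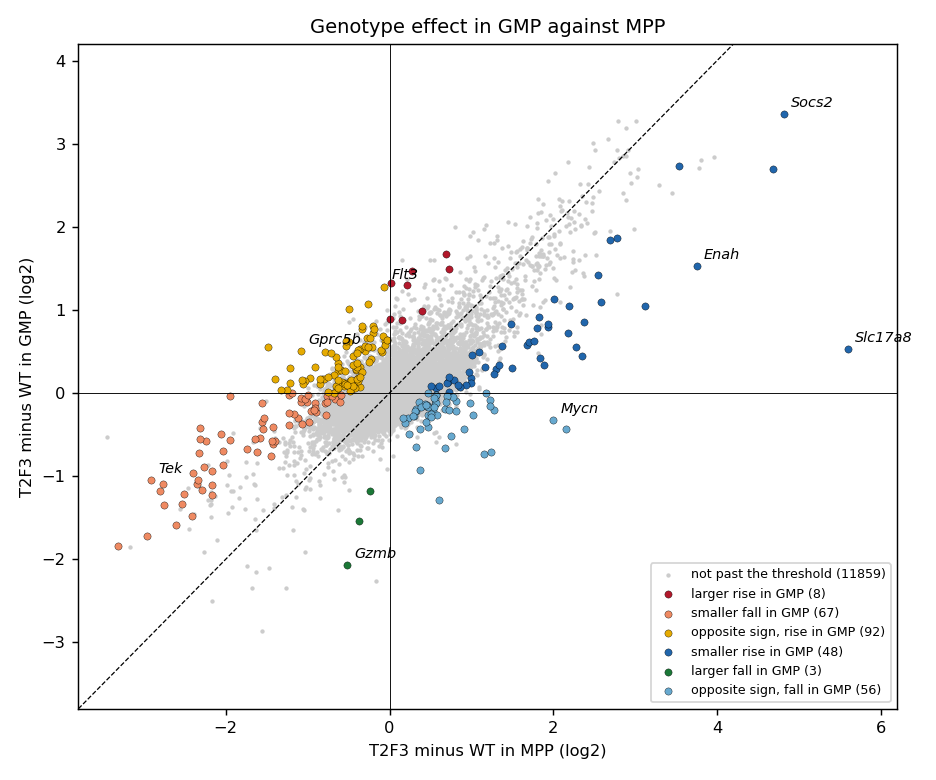
Each point is a gene, with T2F3 minus WT in MPP (log2) on the x axis and T2F3 minus WT in GMP (log2) on the y axis; coloured points are the 274 genes whose effects differed, by class, and the dashed line marks equal effects. Slc17a8 lies far to the right, with an MPP effect of 5.60 and a GMP effect of 0.52.

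**Figure D2:**
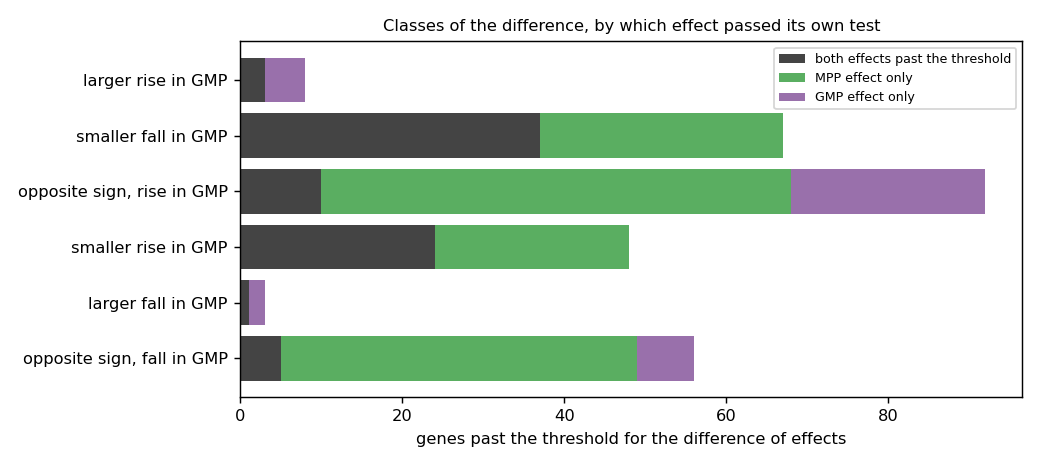
Bars give the number of genes in each of the 6 classes of the difference of effects, divided by which of the genotype effects passed its own test. The MPP effect alone passed in 30 of the 67 smaller falls and in 58 of the 92 opposite-sign genes that were higher in T2F3 GMP.

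The targeted genes were read first. Tet2 read 9.73, 9.81, 9.89 and 9.71 in the WT MPP libraries and 9.67, 9.90 and 9.67 in T2F3 MPP. Tet2 in GMP read 10.13, 9.87, 9.995, 10.19 and 10.13 in WT and 9.88, 10.30 and 10.17 in T2F3. The groups overlapped, and the difference of effects was 0.09 ± 0.15 (SE, limma adjusted p = 0.75). The value covers the whole gene and cannot show the loss of part of it. Flt3, the receptor that carries the ITD, was kept at a higher level in mutant GMP. Flt3 read 11.29, 11.45, 11.48 and 11.30 in the WT MPP libraries and 11.21, 11.34 and 11.40 in T2F3 MPP. Flt3 in GMP read 8.72, 8.85, 8.89, 8.76 and 8.83 in WT and 9.87, 9.93 and 10.47 in T2F3. The MPP groups overlapped, whereas every T2F3 GMP library lay above every WT GMP library. Flt3 differed between genotypes by -0.06 in MPP and by 1.28 in GMP, which gave a difference of effects of 1.34 ± 0.17 (SE, limma adjusted p = 0.000466). Put the other way, the Flt3 mean of GMP minus that of MPP was -2.57 in WT and -1.23 in T2F3. Of 22 genes for partners in FLT3 signalling, 1 passed, Flt3 itself.

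Genes whose means were higher in T2F3 in both populations, but by less in GMP, formed a class of 48. The median effect in this class was 1.69 in MPP and 0.51 in GMP, and 24 of its genes passed both single tests. Slc17a8 encodes a vesicular glutamate transporter and had the largest difference of all tested genes. Slc17a8 read 2.997, 2.71, 2.72 and 3.12 in the WT MPP libraries and 9.86, 7.81 and 7.79 in T2F3 MPP. Slc17a8 in GMP read 2.87, 2.69, 2.67, 2.72 and 2.71 in WT and 3.21, 3.49 and 3.07 in T2F3. The T2F3 MPP libraries stood far above all 12 others, with T2F3 MPP 1 the highest. Slc17a8 differed between genotypes by 5.60 in MPP and by 0.52 in GMP, which gave a difference of effects of -5.07 ± 0.48 (SE, limma adjusted p = 4.43e-05). Enah, an actin regulator of the Ena/VASP family, showed a rise in both populations. Enah read 5.37, 5.63, 5.80 and 5.92 in the WT MPP libraries and 9.76, 9.14 and 9.39 in T2F3 MPP. Enah in GMP read 6.33, 6.33, 6.40, 6.43 and 6.66 in WT and 7.93, 7.64 and 8.31 in T2F3. Every mutant library lay above every WT library of its population. Enah differed between genotypes by 3.75 in MPP and by 1.53 in GMP, which gave a difference of effects of -2.22 ± 0.24 (SE, limma adjusted p = 9.89e-05). Ccn3, a secreted matricellular protein, was low in all WT libraries. Ccn3 read 3.06, 3.08, 3.09 and 3.21 in the WT MPP libraries and 8.07, 7.51 and 7.79 in T2F3 MPP. Ccn3 in GMP read 3.21, 3.18, 3.16, 3.20 and 3.31 in WT and 5.72, 5.61 and 6.39 in T2F3. Both mutant groups were clear of WT, and T2F3 MPP was the higher. Ccn3 differed between genotypes by 4.68 in MPP and by 2.70 in GMP, which gave a difference of effects of -1.98 ± 0.23 (SE, limma adjusted p = 0.000285). Camk2b, a subunit of a calmodulin-dependent kinase, went the same way, with effects of 3.12 in MPP and 1.04 in GMP and a difference of -2.08 ± 0.37 (SE, limma adjusted p = 0.00898).

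Socs2 and Id1, from a list of STAT5 and cytokine feedback genes, were among these smaller rises. Socs2, a suppressor of cytokine signalling that STAT5 induces, was among the most strongly raised genes in both populations. Socs2 read 5.44, 5.09, 5.57 and 5.61 in the WT MPP libraries and 10.21, 10.21 and 10.30 in T2F3 MPP. Socs2 in GMP read 4.73, 5.23, 4.74, 4.96 and 4.89 in WT and 7.86, 8.21 and 8.74 in T2F3. The mutant and WT ranges lay far apart in both populations. Socs2 differed between genotypes by 4.81 in MPP and by 3.36 in GMP, which gave a difference of effects of -1.45 ± 0.25 (SE, limma adjusted p = 0.00676). As a fold, Socs2 was 28.1 times the WT level in T2F3 MPP and 10.3 times in T2F3 GMP. Id1, an inhibitor of helix-loop-helix transcription factors, passed as well. Id1 read 5.14, 4.75, 5.10 and 5.37 in the WT MPP libraries and 6.52, 6.84 and 6.96 in T2F3 MPP. Id1 in GMP read 6.74, 6.80, 6.71, 6.82 and 6.997 in WT and 7.37, 7.55 and 7.23 in T2F3. The groups lay apart in both populations, by more in MPP than in GMP. Id1 differed between genotypes by 1.68 in MPP and by 0.57 in GMP, which gave a difference of effects of -1.11 ± 0.20 (SE, limma adjusted p = 0.00955). Of the 13 genes of this list, these 2 passed, both with a negative difference, as did 0.882% of all tested genes. The other genes of the list did not pass. The 13 differences were 10 negative and 3 positive, and the list's median difference was -0.28 against -0.01 over all tested genes. In MPP 7 of the 13 rose and in GMP 4, against 20.7% and 9.25% of all tested genes. None of 12 ERK feedback genes passed in the main limma fit (2 at an unadjusted p under 0.05, and 1 adjusted with array weights), and their median was 0.19.

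A cytokine receptor and genes of cholesterol synthesis were also in this class. Il18r1, a chain of the interleukin-18 receptor, rose in both populations. Il18r1 read 6.95, 6.52, 7.07 and 6.46 in the WT MPP libraries and 9.53, 9.29 and 9.16 in T2F3 MPP. Il18r1 in GMP read 5.82, 5.18, 5.44, 6.04 and 5.79 in WT and 6.75, 6.98 and 6.52 in T2F3. The groups did not overlap in either population. Il18r1 differed between genotypes by 2.58 in MPP and by 1.10 in GMP, which gave a difference of effects of -1.48 ± 0.27 (SE, limma adjusted p = 0.0101). It was the only 1 of 20 cytokine receptor genes to pass. In cholesterol synthesis, the pathway that runs from acetyl-CoA through mevalonate to sterols, 2 of 23 genes passed, both with a negative difference. Mvd, which had the smaller p, encodes mevalonate diphosphate decarboxylase. Mvd read 6.38, 6.10, 6.53 and 6.49 in the WT MPP libraries and 7.48, 7.83 and 7.81 in T2F3 MPP. Mvd in GMP read 7.32, 7.35, 7.04, 7.42 and 7.08 in WT and 7.42, 7.60 and 7.70 in T2F3. The MPP groups lay apart, and the GMP ranges met where T2F3 GMP 1 and WT GMP 4 read alike. Mvd differed between genotypes by 1.33 in MPP and by 0.33 in GMP, which gave a difference of effects of -1.001 ± 0.19 (SE, limma adjusted p = 0.0107). Of the 23 genes, 22 had a negative difference, with a median of -0.48, and 19 rose in MPP against 6 in GMP. Among all tested genes 20.7% rose in MPP and 9.25% in GMP, and 0.882% passed with a negative difference. The count of the 23 that passed was 5 without WT GMP 1 and T2F3 GMP 2, 12 with array weights and 1 with libraries centred on the median. Itgae, the integrin chain of a dendritic cell subset, rose by 3.54 in MPP and 2.74 in GMP, a difference of -0.80 ± 0.17 (SE, limma adjusted p = 0.0208). That call was lost without T2F3 GMP 2, T2F3 MPP 2, T2F3 MPP 3 or WT MPP 3, where the difference ranged over all single omissions from -0.93 to -0.69 and the adjusted p reached 0.0856.

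A further group rose in mutant MPP and did not pass, or fell, in mutant GMP. Mycn, a MYC family transcription factor of immature cells, was the clearest. Mycn read 7.13, 7.55, 7.003 and 7.34 in the WT MPP libraries and 9.36, 9.15 and 9.24 in T2F3 MPP. Mycn in GMP read 5.27, 5.46, 4.92, 4.94 and 5.14 in WT and 4.64, 4.78 and 5.02 in T2F3. Its mutant MPP libraries stood above all others, while the GMP groups overlapped only between T2F3 GMP 3 and the lower WT values. Mycn differed between genotypes by 1.996 in MPP and by -0.33 in GMP, which gave a difference of effects of -2.33 ± 0.21 (SE, limma adjusted p = 4.43e-05). Its GMP mean minus its MPP mean was -2.11 in WT and -4.44 in T2F3. Timp3, an inhibitor of metalloproteinases that was outside the naming rule and chosen after its values were seen, had an MPP mean of 5.54 ± 0.37 (SD over 4 WT libraries) against 7.70 ± 0.16 (SD over 3 T2F3 libraries). Its GMP means were 5.15 ± 0.44 (SD over 5 WT libraries) and 4.72 ± 0.21 (SD over 3 T2F3 libraries), and the difference of effects was -2.59 ± 0.33 (SE, limma adjusted p = 0.000579).

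A few genes of T cells and lymphocytes were on this side. Gimap4, a GTPase of the immunity-associated family expressed in lymphocytes, rose in mutant MPP and fell in mutant GMP. Gimap4 read 5.57, 5.96, 6.004 and 5.68 in the WT MPP libraries and 7.26, 6.58 and 7.04 in T2F3 MPP. Gimap4 in GMP read 5.29, 4.79, 4.24, 4.46 and 4.70 in WT and 3.81, 4.06 and 4.002 in T2F3. Neither population's groups overlapped, and they were ordered in opposite ways. Gimap4 differed between genotypes by 1.16 in MPP and by -0.74 in GMP, which gave a difference of effects of -1.89 ± 0.30 (SE, limma adjusted p = 0.00397). Lck, the T cell kinase that is also expressed in early lymphoid progenitors, rose in MPP, and its GMP effect did not pass. Lck read 7.39, 7.55, 7.46 and 7.14 in the WT MPP libraries and 8.41, 8.71 and 8.73 in T2F3 MPP. Lck in GMP read 5.96, 5.59, 5.46, 5.58 and 5.57 in WT and 5.77, 5.33 and 5.53 in T2F3. The MPP groups lay apart and the GMP groups overlapped, with WT GMP 1 the highest WT value. Lck differed between genotypes by 1.23 in MPP and by -0.09 in GMP, which gave a difference of effects of -1.32 ± 0.20 (SE, limma adjusted p = 0.003). Of 8 T and NK genes tested, 3 passed, Gzmb, Lck and Lat, all with a negative difference, as did 0.882% of all tested genes. Gzmb is also in the basophil, mast cell and eosinophil list. The 8 differences were split, with 5 negative and 3 positive and a median of -0.38. The T cell receptor complex genes Cd3e, Cd3d and Cd247 were too low to be tested, with summed linear levels from 14.9 to 31.6 over all 15 libraries. Among 11 B lymphoid genes tested, 10 had a positive difference, with a median of 0.69. The early B cell factor Ebf1 was the 1 that passed (1.05 ± 0.26 SE, limma adjusted p = 0.0482). A positive difference passed in 1.38% of all tested genes. Ebf1 is an example chosen after its values were seen, and with quantile normalization no gene of the list passed. In MPP 7 of the 11 fell, and in GMP 6, against 19.6% and 6.04% of all tested genes. The summed level of the B cell markers Cd79a and Ms4a1 ran from 87.1 to 156 in WT MPP, 27.3 to 36.5 in T2F3 MPP, 35.7 to 76.1 in WT GMP and 24.2 to 31.0 in T2F3 GMP, and their part in the result was not tested.

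Other genes of opposite sign were less firm. P2rx3, an ATP-gated ion channel, had effects of 0.37 in MPP and -0.43 in GMP and a difference of -0.81 ± 0.17 (SE, limma adjusted p = 0.0244). Clpp, a mitochondrial protease, had a difference of -0.57 ± 0.13 (SE, limma adjusted p = 0.0298), and Lap3, a leucine aminopeptidase, one of -0.56 ± 0.12 (SE, limma adjusted p = 0.0244). These 3 calls were each lost without T2F3 GMP 3, T2F3 MPP 3, WT MPP 1, WT MPP 3 or WT MPP 4. P2rx3 and Lap3 were also lost without T2F3 MPP 2, Clpp and Lap3 without T2F3 GMP 2, and Clpp without WT GMP 2 or WT GMP 5. The highest adjusted p on leaving out a library was 0.0815 for P2rx3, 0.107 for Clpp and 0.0856 for Lap3. Vwf, the adhesive glycoprotein of platelets and endothelium, gave 0.81 in MPP and -0.21 in GMP and a difference of -1.02 ± 0.22 (SE, limma adjusted p = 0.025), which was lost without T2F3 MPP 3, WT MPP 3 or WT MPP 4 (adjusted p up to 0.0694).

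The class of larger falls in GMP held Gzmb, Cdh1 and Rab27b. Gzmb encodes the cytotoxic protease granzyme B, which basophil and mast cell progenitors can also carry. Gzmb read 4.30, 4.42, 4.42 and 4.10 in the WT MPP libraries and 3.9998, 3.68 and 3.69 in T2F3 MPP. Gzmb in GMP read 6.17, 5.53, 5.24, 5.54 and 5.44 in WT and 3.65, 3.50 and 3.39 in T2F3. The GMP groups lay far apart, the MPP groups were closer, and the GMP mean minus the MPP mean was 1.27 in WT and -0.28 in T2F3. Gzmb differed between genotypes by -0.52 in MPP and by -2.07 in GMP, which gave a difference of effects of -1.55 ± 0.25 (SE, limma adjusted p = 0.00476). Cdh1, the adhesion molecule E-cadherin, fell in GMP. Cdh1 read 4.83, 5.06, 5.04 and 5.24 in the WT MPP libraries and 4.33, 5.03 and 4.65 in T2F3 MPP. Cdh1 in GMP read 5.99, 6.79, 6.72, 6.72 and 6.81 in WT and 5.14, 5.04 and 5.01 in T2F3. The GMP groups did not overlap, although WT GMP 1 lay well below the other WT libraries. Cdh1 differed between genotypes by -0.37 in MPP and by -1.54 in GMP, which gave a difference of effects of -1.17 ± 0.27 (SE, limma adjusted p = 0.033). That call was lost without any 1 of T2F3 GMP 2 and 3, T2F3 MPP 2 and 3, WT GMP 2, 3, 4 and 5 and WT MPP 1, 3 and 4 (adjusted p up to 0.0955). Rab27b, a GTPase of secretory granules, had effects of -0.23 in MPP and -1.18 in GMP and a difference of -0.95 ± 0.22 (SE, limma adjusted p = 0.0328), and it was lost without T2F3 GMP 1 or 3, T2F3 MPP 2 or 3, WT GMP 2 or WT MPP 1, 4 or 5 (adjusted p up to 0.0816) and with a pseudocount of 8 (adjusted p = 0.0540).

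Some genes of basophils, mast cells and eosinophils passed, all with a negative difference. Mcpt8, a protease of basophils, was 1 of them. Mcpt8 read 7.99, 8.08, 8.37 and 7.96 in the WT MPP libraries and 8.81, 8.63 and 8.68 in T2F3 MPP. Mcpt8 in GMP read 10.71, 10.94, 10.19, 10.36 and 9.68 in WT and 9.27, 9.40 and 8.60 in T2F3. The WT GMP libraries lay above the T2F3 GMP libraries, and the T2F3 MPP libraries above the WT MPP libraries. Mcpt8 differed between genotypes by 0.61 in MPP and by -1.28 in GMP, which gave a difference of effects of -1.89 ± 0.33 (SE, limma adjusted p = 0.00692). Only the GMP effect passed its own test (limma adjusted p = 0.000838). Of 19 genes of basophils, mast cells and eosinophils, 3 passed, Mcpt8, Gzmb and Ear2, all negative, with a list median of -0.53. Over all tested genes 2.26% passed, and 0.882% passed with a negative difference. Of the 19 differences 14 were negative and 5 positive, and Prss34, Cpa3 and Fcer1a did not pass (limma adjusted p = 0.140, 0.295 and 0.251). In MPP 13 of the 19 fell, and in GMP 13. The summed linear level of the 4 defining markers Prss34, Mcpt8, Cpa3 and Fcer1a ran from 793 to 1070 in WT MPP, 609 to 698 in T2F3 MPP, 3108 to 6258 in WT GMP and 666 to 1385 in T2F3 GMP, lower in the mutants in both populations. Their part in the result was not tested.

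Genes whose means were lower in T2F3 in both populations, but by less in GMP, made up a class of 67. Both effects passed in 37 of them and the MPP effect alone in 30, and the median effect was -1.54 in MPP and -0.43 in GMP. Tek, the receptor TIE2 of stem cells and endothelium, had the smallest p in the whole contrast. Tek read 6.47, 6.44, 6.42 and 6.31 in the WT MPP libraries and 3.52, 3.46 and 3.50 in T2F3 MPP. Tek in GMP read 4.38, 4.55, 4.52, 4.59 and 4.43 in WT and 3.44, 3.51 and 3.39 in T2F3. WT exceeded T2F3 in both populations, and all 6 mutant libraries read between 3.39 and 3.52. Tek differed between genotypes by -2.92 in MPP and by -1.05 in GMP, which gave a difference of effects of 1.87 ± 0.15 (SE, limma adjusted p = 8.60e-06). Slc16a11, a member of the monocarboxylate transporter family, fell in MPP, and its GMP effect did not pass. Slc16a11 read 6.37, 6.26, 6.30 and 6.17 in the WT MPP libraries and 4.53, 4.12 and 4.35 in T2F3 MPP. Slc16a11 in GMP read 4.35, 4.34, 4.36, 4.24 and 4.45 in WT and 3.98, 4.68 and 4.29 in T2F3. The WT MPP libraries stood above all the rest, which overlapped. Slc16a11 differed between genotypes by -1.94 in MPP and by -0.03 in GMP, which gave a difference of effects of 1.91 ± 0.21 (SE, limma adjusted p = 0.000111). Itga9, the integrin alpha-9 chain, and Vldlr, a lipoprotein receptor, were of the same kind. Itga9 read 6.12, 6.09, 5.96 and 5.97 in the WT MPP libraries and 3.65, 3.82 and 3.69 in T2F3 MPP. Itga9 in GMP read 3.65, 3.46, 3.44, 4.10 and 3.88 in WT and 3.14, 3.51 and 3.18 in T2F3. WT MPP lay above the other 3 groups, and the GMP groups overlapped. Itga9 differed between genotypes by -2.31 in MPP and by -0.43 in GMP, which gave a difference of effects of 1.89 ± 0.22 (SE, limma adjusted p = 0.000285). Vldlr had effects of -2.31 in MPP and -0.55 in GMP and a difference of 1.76 ± 0.24 (SE, limma adjusted p = 0.00117). In 29 of the 67 genes both T2F3 means were under 5, in the range where the regularized log shrinks values, and the part of that shrinkage in the result was not tested.

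Some stem cell and early lymphoid genes had this form. Satb1, a chromatin organizer needed for lymphoid specification, fell in MPP to the level of GMP. Satb1 read 10.12, 10.37, 10.20 and 10.09 in the WT MPP libraries and 8.60, 9.23 and 9.08 in T2F3 MPP. Satb1 in GMP read 8.85, 8.99, 9.16, 9.11 and 9.10 in WT and 8.91, 8.95 and 9.20 in T2F3. T2F3 MPP, WT GMP and T2F3 GMP overlapped, and WT MPP stood above all. Satb1 differed between genotypes by -1.23 in MPP and by -0.02 in GMP, which gave a difference of effects of 1.21 ± 0.18 (SE, limma adjusted p = 0.003). Among 27 stem cell and MPP genes, 3 passed with a positive difference, Tek, Hlf and Meis1, and 1 with a negative one, Mycn. Their median was 0.45, with 17 falls in MPP and 5 in GMP. The shares of all tested genes were 19.6% for a fall in MPP and 6.04% for a fall in GMP. A positive difference passed in 1.38% of all tested genes and a negative one in 0.882%. Hlf, a transcription factor of stem cells, stood at 10.80 and 9.26 in WT and T2F3 MPP and at 8.11 and 7.68 in WT and T2F3 GMP, a difference of 1.11 ± 0.23 (SE, limma adjusted p = 0.0204). Among 20 early lymphoid genes, Flt3, Satb1 and Tcf4 passed with a positive difference and Lck with a negative one, and 17 of the 20 differences were positive, with a median of 0.48.

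Erythroid genes fell in both populations, and the median fall was larger in MPP. Of 21 tested, 18 fell in MPP and 16 in GMP, with median effects of -1.64 and -1.10, and 19 had a positive difference of effects. Among all tested genes 19.6% fell in MPP and 6.04% in GMP, and 1.38% passed with a positive difference. Add2, Ank1, Ermap and Rhd passed, 4 of the 21 erythroid genes. Their T2F3 means in MPP and GMP were 4.08 and 4.17, 5.01 and 4.91, 4.73 and 4.59, and 4.12 and 4.35. In all 4 the WT mean was higher in MPP than in GMP. The regularized log shrinks low values, and the part of the low T2F3 levels in these differences was not tested. Add2 encodes beta-adducin and Ank1 encodes ankyrin, both of the red cell membrane skeleton. Add2 read 7.07, 6.85, 7.03 and 6.55 in the WT MPP libraries and 4.17, 4.15 and 3.91 in T2F3 MPP. Add2 in GMP read 5.32, 5.84, 5.14, 5.09 and 5.36 in WT and 4.28, 3.95 and 4.29 in T2F3. WT lay above T2F3 in both populations, and the mutant libraries of both populations overlapped. Add2 differed between genotypes by -2.80 in MPP and by -1.18 in GMP, which gave a difference of effects of 1.62 ± 0.25 (SE, limma adjusted p = 0.00306). For Ank1, the effects were -2.53 in MPP and -1.33 in GMP, a difference of 1.20 ± 0.23 (SE, limma adjusted p = 0.0146). The count that passed was 5 without WT GMP 1 and T2F3 GMP 2, 7 with quantile normalization, 10 with the ribosomal covariate and 12 with array weights, all positive. Of 3 defining erythroid markers, Hbb-b1 was listed at 0 in every library and Hba-a1 was below 0 in every group mean, while Alas2 was tested and did not pass. Their summed level ran from 60.7 to 76.2 in WT MPP, 34.3 to 54.5 in T2F3 MPP, 33.0 to 49.1 in WT GMP and 27.3 to 46.7 in T2F3 GMP, and the part of erythroid cells in the result was not tested.

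The promoters of smaller-fall genes were searched for the letters of the GATA motif, AGATAA on either strand, in the 250 bases before the start site. It was found in 8 of the 55 such genes with a promoter (14.5%) and in 713 of 9704 tested genes with one (7.35%). Its share was 8.82% in promoters of smaller-rise genes and 8.57% in those of all called genes. Promoters are RefSeq entries of the GRCm38.p6 assembly. All 8 smaller-fall genes with the motif fell less in GMP by the definition of the class, and they are not all red cell genes. Sites of 3 red cell genes, chosen after their values were seen, are given, and the rest are not shown. These 3 are Kel, a blood group protein, Pklr, the red cell pyruvate kinase, and Rhd, the Rh blood group protein. Capitals mark the motif, each is written 5′ to 3′ on the strand of its gene, and the first base of the motif lies 56, 35 and 43 bases before the start.
Kel chr6:41704349-41704408 minus strand: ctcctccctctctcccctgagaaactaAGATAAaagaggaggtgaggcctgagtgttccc
Pklr chr3:89136080-89136139 plus strand: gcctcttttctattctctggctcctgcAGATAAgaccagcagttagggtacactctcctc
Rhd chr4:134864466-134864525 plus strand: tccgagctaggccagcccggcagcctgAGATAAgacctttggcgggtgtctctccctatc
Kel had effects of -2.41 in MPP and -1.48 in GMP (difference 0.93 ± 0.20 SE, limma adjusted p = 0.0280), Pklr of -2.76 and -1.35 (1.40 ± 0.28 SE, 0.0167) and Rhd of -2.04 and -0.70 (1.34 ± 0.32 SE, 0.0419). The STAT palindrome TTCNNNGAA was found in 5 of 34 promoters of smaller-rise genes (14.7%) and in 7.21% of tested genes. Its share was 9.09% in smaller-fall genes and 8.1% in all called genes. The ETS letters CCGGAA were found in 24 of 210 promoters of called genes (11.4%) and in 25.7% of tested genes. Their share was 10.9% in smaller-fall genes and 17.6% in smaller-rise genes. Another motif that was searched for was found in 2.86% of called genes and in 3.32% of tested genes. Its share was 3.64% in smaller-fall genes and 5.88% in smaller-rise genes. Whether any of these shares differ between the sets was not tested. A match describes letters, not a bound site.

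Larger rises in GMP were few. Oas2, an interferon-induced RNA sensor, did not pass in MPP and rose in mutant GMP. Oas2 read 7.34, 7.41, 7.45 and 7.34 in the WT MPP libraries and 7.16, 7.51 and 7.54 in T2F3 MPP. Oas2 in GMP read 5.77, 5.83, 5.62, 5.74 and 5.72 in WT and 6.38, 7.45 and 7.36 in T2F3. The MPP groups overlapped and the GMP groups did not, T2F3 GMP 1 being the lowest of its group. Oas2 differed between genotypes by 0.02 in MPP and by 1.33 in GMP, which gave a difference of effects of 1.31 ± 0.26 (SE, limma adjusted p = 0.0175). Without T2F3 GMP 3 the difference was 1.11 and the adjusted p 0.0554. Nfatc2, a calcium-regulated transcription factor, showed the same form. Nfatc2 read 8.72, 8.72, 8.46 and 8.72 in the WT MPP libraries and 8.91, 8.86 and 8.85 in T2F3 MPP. Nfatc2 in GMP read 6.68, 6.56, 6.79, 6.72 and 6.60 in WT and 7.59, 7.97 and 8.36 in T2F3. The T2F3 GMP libraries stood above WT GMP and below all MPP libraries. Nfatc2 differed between genotypes by 0.22 in MPP and by 1.31 in GMP, which gave a difference of effects of 1.09 ± 0.19 (SE, limma adjusted p = 0.00675). Rnf150, a RING finger protein, had effects of 0.28 in MPP and 1.47 in GMP and a difference of 1.19 ± 0.24 (SE, limma adjusted p = 0.0188), lost without T2F3 MPP 2 (0.95, adjusted p = 0.0584). Pld2, a phospholipase D, rose by 0.69 in MPP and 1.68 in GMP, a difference of 0.99 ± 0.24 (SE, limma adjusted p = 0.0419), and 9 of the 15 single omissions ended the call: T2F3 GMP 2 and 3, T2F3 MPP 2 and 3, WT GMP 4 and 5 and WT MPP 1, 3 and 4 (adjusted p up to 0.142). The Pld2 call was also lost with quantile normalization (adjusted p = 0.0652), a pseudocount of 8 (0.0507) and a minimum mean of 6 (0.0522).

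Genes of opposite sign with a rise in GMP were the largest class, at 92. Gprc5b, an orphan receptor of the G protein-coupled class, fell in MPP and rose in GMP. Gprc5b read 6.96, 7.15, 6.86 and 6.62 in the WT MPP libraries and 5.89, 5.73 and 5.82 in T2F3 MPP. Gprc5b in GMP read 4.50, 4.24, 4.16, 4.14 and 4.13 in WT and 4.43, 4.89 and 4.90 in T2F3. WT MPP lay above T2F3 MPP, and T2F3 GMP lay above WT GMP except that WT GMP 1 exceeded T2F3 GMP 1. Gprc5b differed between genotypes by -1.08 in MPP and by 0.50 in GMP, which gave a difference of effects of 1.59 ± 0.21 (SE, limma adjusted p = 0.00086). Bach2, a transcriptional repressor of lymphoid cells, took the same form. Bach2 read 7.83, 8.05, 8.01 and 8.01 in the WT MPP libraries and 6.87, 7.51 and 7.18 in T2F3 MPP. Bach2 in GMP read 6.50, 6.56, 6.23, 6.52 and 6.58 in WT and 6.56, 7.05 and 7.28 in T2F3. The MPP groups did not overlap, and T2F3 GMP 1 read within the WT GMP range. Bach2 differed between genotypes by -0.79 in MPP and by 0.49 in GMP, which gave a difference of effects of 1.28 ± 0.23 (SE, limma adjusted p = 0.00839). Ggt5, a gamma-glutamyl transferase, differed by 1.16 ± 0.25 (SE, limma adjusted p = 0.0258), and Spred3, an inhibitor of the RAS-ERK pathway, by 1.11 ± 0.22 (SE, limma adjusted p = 0.0184). Both were lost without T2F3 GMP 3, T2F3 MPP 2 or T2F3 MPP 3, and Ggt5 also without T2F3 GMP 2 or WT MPP 3 (adjusted p up to 0.0983 and 0.0750). Slc2a3, a glucose transporter and the only 1 of 17 glycolysis genes to pass, had effects of -0.45 in MPP and 0.44 in GMP and a difference of 0.89 ± 0.19 (SE, limma adjusted p = 0.0208), lost without T2F3 GMP 3, T2F3 MPP 2, T2F3 MPP 3 or WT MPP 3 (adjusted p up to 0.0792). Sdc1, the proteoglycan syndecan, chosen after its values were seen, had the largest difference in this class: 2.04 ± 0.27 (SE, limma adjusted p = 0.00100).

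**Figure D3:**
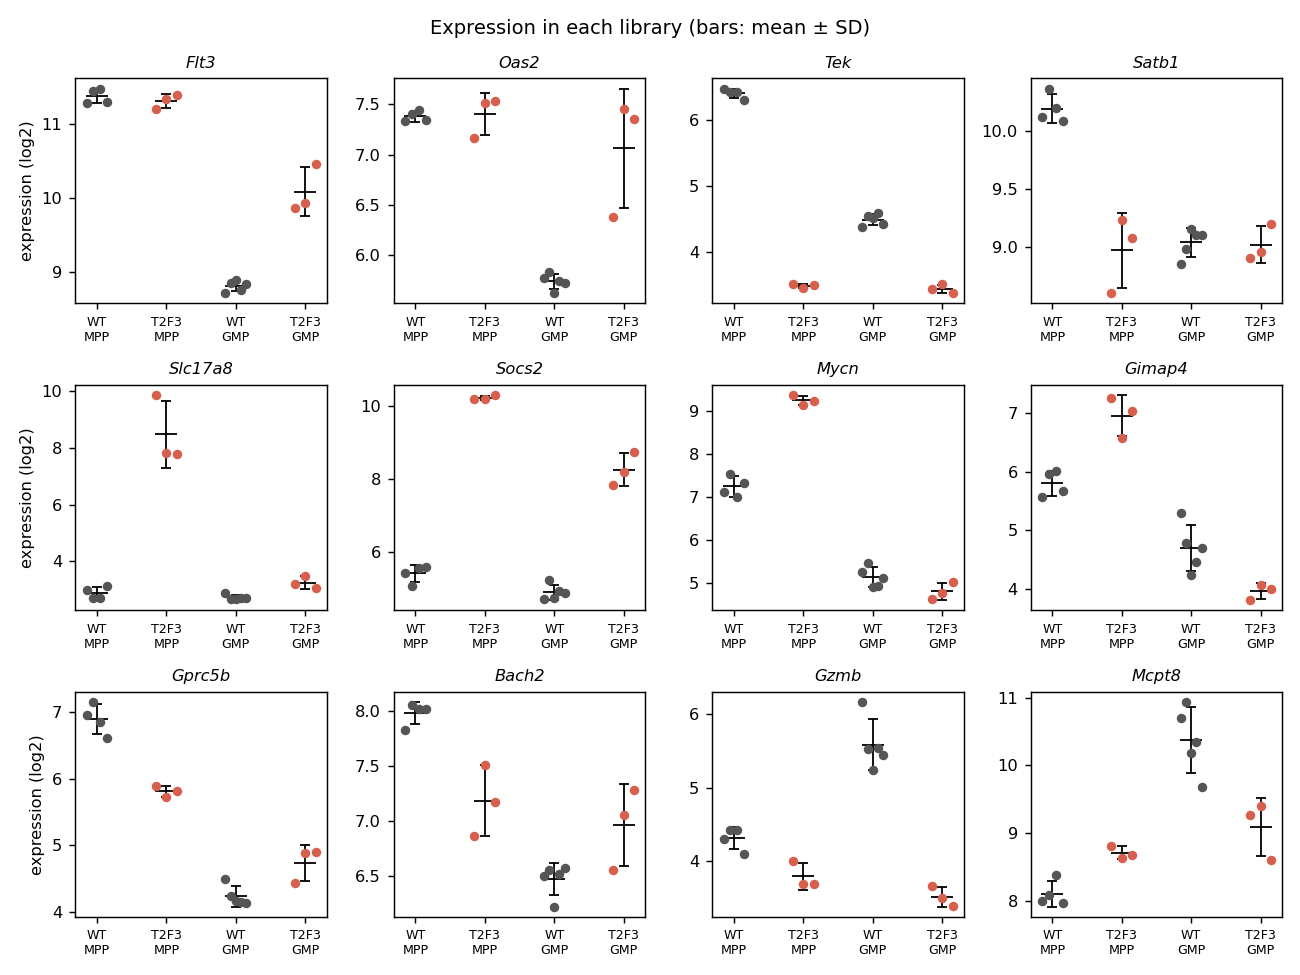
Each panel plots 1 gene, with log2 expression on the y axis and the 4 groups on the x axis; points are libraries (grey WT, red T2F3) and bars are the mean and SD. In Socs2 the T2F3 libraries are above WT in both populations and highest in MPP, and in Flt3 only the GMP groups are apart.

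Antigen presentation rose in both populations, and most of its genes did not pass for the difference of effects. All 14 MHC class II pathway genes rose in MPP and all 14 in GMP, with median effects of 2.05 and 1.84, and 1 passed for the difference, H2-Ob (0.76 ± 0.18 SE, limma adjusted p = 0.0435). Of 24 dendritic cell genes, 16 rose in MPP and 19 in GMP, with medians of 1.56 and 1.60, while 4 passed for the difference: Tcf4, Flt3 and Runx2 with a positive one and Itgae with a negative one. Of 37 interferon response genes, 25 rose in MPP and 27 in GMP, and Oas2, Ifitm1 and Igtp passed for the difference. None of 26 monocyte and macrophage genes passed in the main limma fit (6 at an unadjusted p under 0.05, and 5 adjusted with array weights), although 22 rose in MPP and 18 in GMP. Over all tested genes 2.26% passed for the difference, 20.7% rose in MPP and 9.25% rose in GMP. A p that misses the threshold does not show that effects were equal.

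Ribosomal protein and oxidative phosphorylation genes had small differences of 1 sign. All 74 ribosomal genes tested had a negative difference, with a median of -0.45, and none passed in the main limma fit. At an unadjusted p under 0.05 there were 6. In MPP 59 rose, against 20.7% of all tested genes. In GMP none rose and 1 fell, against 9.25% and 6.04% of all tested genes. All 62 oxidative phosphorylation genes were negative with a median of -0.54, and 1, Uqcrc1, passed. Beside this stand WT GMP 1 and T2F3 GMP 2, whose ribosomal genes lay a median of 1.06 and 0.79 above the rest of their groups. Without those 2 libraries 49 ribosomal and 43 oxidative phosphorylation genes passed, all negative, and with quantile normalization 3 of the 74 turned positive and the ribosomal median was -0.22. With the ribosomal score as a covariate, which removes much of the signal of these genes by construction, 35 of the 74 were positive with a median of -0.01, and 14 of the 62 oxidative phosphorylation genes were positive with a median of -0.14.

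Most late neutrophil and replication genes did not pass. Of 20 late neutrophil genes 18 had a positive difference, with a median of 0.68, and only Cxcr2 passed. Their 4 defining markers, among them Ltf and S100a8, summed to between 27488 and 103105 in WT GMP and between 57837 and 214798 in T2F3 GMP, a wide range within each group. Their part in the result was not tested. In the main limma fit none of 28 replication and mitosis genes passed, with 1 at an unadjusted p under 0.05, and none of 18 NF-kB genes or 9 TET and DNMT genes, with 0 in both. Array weights brought 1 NF-kB gene past the threshold, leaving out WT GMP 1 and T2F3 GMP 2 also brought 1, and the ribosomal score as a covariate brought 1 TET or DNMT gene, all with a negative difference. The medians of these 3 lists changed sign with the scaling or the covariate.

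**Figure D4:**
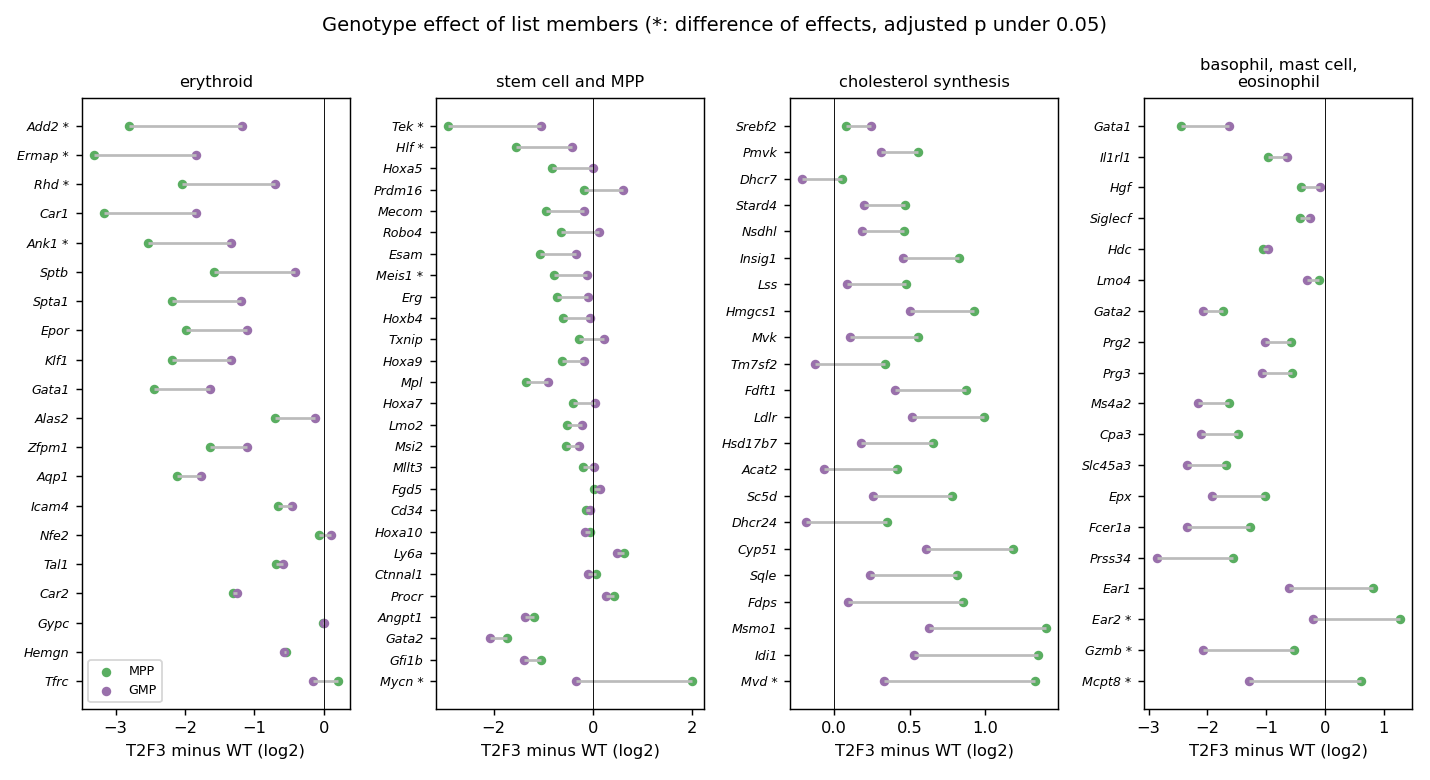
For the members of 4 gene lists that are reported here, the x axis gives T2F3 minus WT (log2), green points for MPP and purple for GMP, joined by a line; an asterisk marks a difference of effects past the threshold. Most erythroid members lie left of 0, further in MPP than in GMP, and most cholesterol synthesis members lie right of 0.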

How the data were processed

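Per the labels' protocols, RNA of sorted progenitors went into stranded mRNA libraries. The log2 values were deposited by the authors as 1 table of 24424 genes, whose name marks them as regularized log values. STAR, Bowtie, HOMER, DESeq2 and the mm9 build are listed without versions in the submitters' processing notes. The regularized log shrinks low values, which understates differences of low genes. Counts were not part of the table, so library depth is unknown. No value was dropped or imputed.

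Entrez IDs were matched to symbols for 24345 genes. Genes with a mean of at least 4 were fitted in limma 3.58.1 (R 4.3.3), with a mean per group over all 15 libraries, eBayes with trend and robust, and a two-sided interaction contrast; p-values were adjusted by Benjamini-Hochberg over 12133 genes, with a threshold of 0.05. The fit was tested on simulated data. Genes at a mean under 4 and the other 41 samples were not analysed here.

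The genes named were the targeted Tet2 and Flt3, the 4 largest differences of each class (in opposite-sign classes, those with both effects past the threshold first) and up to 2 members per list, at most 14. Predicted genes and antigen receptor segments were left out, and some genes of the rule and the lists are not reported here. The genes, the classes and the 29 lists were chosen with earlier results of these data known; 2 list entries found no match. Alternatives were other filters and scalings, a pseudocount of 8, array weights, covariates, a replicate block, a test against 0.5 and each library left out. Promoter sequences came from RefSeq (GRCm38.p6), not the submitters' build. Matplotlib 3.10.9 drew the figures, and Python 3.11.15 with NumPy 2.4.6 and pandas 2.3.3 made the summaries.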

Additional observations from a re-analysis of the deposited data

Results flagged for a closer look

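Single libraries lay far from the rest of their group in 6 of the 76 groups of named genes with 4 or 5 libraries, where chance gives about 1 group in 20. Nfatc2 read 8.46 in WT MPP 4, below the others of its group. Bach2 read 6.23 in WT GMP 3, also below. Lap3 read 9.11 in WT MPP 5, above. WT GMP 1 was apart in the other 3: Slc17a8 at 2.87, Lck at 5.96, both above, and Cdh1 at 5.99, below. WT GMP 1 is also the library whose ribosomal protein genes stood a median of 1.06 above the rest of its group.

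The genotype effect differed between the populations in 274 genes by the limma test of the difference itself. Among the named genes, the GMP effect was the higher by the log2 difference given in Flt3 (1.34), Oas2 (1.31), Rnf150 (1.19), Nfatc2 (1.09), Pld2 (0.99), Slc16a11 (1.91), Itga9 (1.89), Tek (1.87), Vldlr (1.76). It was also the higher in Gprc5b (1.59), Bach2 (1.28), Ggt5 (1.16), Spred3 (1.11), Satb1 (1.21), Add2 (1.62), Ank1 (1.20), Slc2a3 (0.89). The GMP effect was the lower in Slc17a8 (-5.07), Enah (-2.22), Camk2b (-2.08), Ccn3 (-1.98), Gzmb (-1.55), Cdh1 (-1.17), Rab27b (-0.95), Gimap4 (-1.89), P2rx3 (-0.81), Clpp (-0.57). It was also the lower in Lap3 (-0.56), Mycn (-2.33), Lck (-1.32), Socs2 (-1.45), Mcpt8 (-1.89), Id1 (-1.11), Il18r1 (-1.48), Mvd (-1.001), Itgae (-0.80), Vwf (-1.02). Leaving out each of the 15 libraries in turn kept 24 of these 37 genes past the threshold in every fit.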

How the results depend on the processing

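Against the 274 calls (167 positive, 107 negative), array weights gave 1494 (720 and 774), the ribosomal score as a covariate 962 (433 and 529), leaving out WT GMP 1 with T2F3 GMP 2 1204 (399 and 805), a minimum mean of 6 gave 140 (89 and 51), and a test against a difference of 0.5 gave 16 (10 and 6). Without the filter there were 436 calls, 250 of them positive and 186 negative, over 19289 genes. Leaving out 1 library gave between 79 and 586 calls, 44 to 358 positive and 35 to 228 negative. The count was within 1.5 times of 274 with centring (302), quantile normalization (347), no trend or robust step (258), a pseudocount of 8 (262) and a sex term (235). No gene of the 274, which were called from these same libraries, changed sign under any of these. Among named genes the only sign change was that of Tet2, whose difference did not pass in any fit and was -0.086 under array weights. Of the 274 genes, 273 passed with array weights, 270 without WT GMP 1 and T2F3 GMP 2, and 244 with centring. The cause of these shifts was not tested.

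Libraries of equal number were compared in 7 pairs across populations. The correlation of their deviations was positive in all 7, from 0.055 to 0.46. It was over 0.1 in 5 of 7, and 4 of 7 matched their own number best. These values do not settle whether equal numbers mark the same animal. No label ties the numbers to animals, and WT 1 and T2F3 1 lay under 0.1 (0.059 and 0.055). The main fit was therefore left unpaired, and its calls depend on that choice. Sex-linked genes were alike in 7 of 7. Y-linked signal was present in 4 libraries: T2F3 MPP 1, T2F3 GMP 1, WT MPP 3 and WT GMP 3. T2F3 MPP 1 is the library whose omission gave 586 calls, and the part of sex in that count was not tested. With the replicate number as a fixed replicate block there were 204 calls (133 positive, 71 negative), 159 of them among the 274, and with it as a random block (duplicateCorrelation) 400 (239 and 161), 274 of them shared. The fixed block ended the calls of 5 named genes, Spred3, Camk2b, Rab27b, Clpp and Lap3. The classes could not be computed under the fixed block. Depth is unknown, so no lower limit on detectable levels is given.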
